A study of Mus musculus with 74 samples.

Results

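Lung tumours of KT_H11_LSL-Cas9 mice, in which Cre switches on Cas9, were compared with those of KT mice, which carry no Cas9. Both groups carry the same tumour-starting allele and the red reporter R26LSL-Tomato, each switched on by Cre, and KT_H11_LSL-Cas9 adds Cas9 at the H11 locus behind a stop cassette. All mice received the same Lenti-U6BC-sgDbl/Cre pool, in which each virus carries Cre, a barcode and 2 guide RNAs, and their lungs were collected about 3 months later. The labels give neither the viral dose nor the ages of the mice. Of the 74 mice of the series, 20 are KT_H11_LSL-Cas9 and 9 are KT. A KT_H11_LSL-Cas9 mouse was kept if it had 5 or more tumours whose guides were both inert (safe, NT or EGFP guides, here called inert/inert), which left 17 mice, and all 9 KT mice were kept.

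The 3 mice left out were KT_H11_LSL-Cas9 replicate 3 with 16 tumours and 0 inert/inert, replicate 7 with 4 tumours and 0 inert/inert, and replicate 8 with 856 tumours and 4 inert/inert. The nearest mice inside the limit were replicate 12 with 8 and replicate 1 with 9 inert/inert tumours. Spike-in entries (116) and tumours with the same guide in both places (579 in KT_H11_LSL-Cas9 and 4170 in KT mice) were removed. The remainder was 48337 tumours in KT_H11_LSL-Cas9 and 204936 in KT mice. Results are given for 16 genes, each beside an inert guide, and for the 120 pairs of these genes.

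In this assay each barcode marks the descendants of a transduced lung cell, so reads per barcode, scaled by spiked-in cells of known number, give tumour sizes in cells. Without Cas9 the guides cannot cut, so KT mice show how often each guide combination occurred in the virus pool. Many of the targeted genes restrain tumours: Nf1 and Rasa1 are GTPase-activating proteins, p53 and Rb1 guard the cell cycle, Lkb1 is a growth-restraining kinase, and Apc and Rnf43 dampen Wnt signalling. Setd2, Kmt2a and Kmt2b methylate histones, Kat7 and Meaf6 belong to a histone acetyltransferase complex, Ccnl1 and Ccnl2 are cyclins linked to RNA splicing, Keap1 restrains the antioxidant regulator Nrf2, and Pcna is the clamp that replication needs.

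Each KT_H11_LSL-Cas9 mouse had 1138 to 4914 tumours (median 2784) from 130721 to 1157665 reads, against 12851 to 40207 tumours (median 19156) in KT mice from 1417718 to 11058126 reads. Inert/inert tumours numbered 8 to 47 per KT_H11_LSL-Cas9 mouse (median 22) and 86 to 304 per KT mouse (median 136), so ratios over them were the less precise in KT_H11_LSL-Cas9 mice. A read stood for 1.05 to 51.6 cells (median 13.4) in KT_H11_LSL-Cas9 and for 1.12 to 8.82 cells (median 4.82) in KT mice. All 17 KT_H11_LSL-Cas9 mice and 4 KT mice had spike-ins near 300000 cells, and the other 5 KT mice near 100000. The letters in the mice's names also differ between the genotypes throughout, so that what those letters stand for cannot be told apart from Cas9. Mice are the replicates in every test below, which is an exact two-sided permutation of mouse labels on the difference over its standard error unless another is named.

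The size distributions of the groups crossed: KT_H11_LSL-Cas9 mice had smaller typical tumours and far larger top ones. The median tumour held 106 to 375 cells in KT_H11_LSL-Cas9 mice (middle mouse 145) and 198 to 554 cells in KT mice (middle mouse 277), a difference of -0.86 on the log2 scale (SE 0.214, adjusted p = 0.00177 over 26 whole-lung measures). At the 90th percentile the difference was -1.02 (SE 0.283, adjusted p = 0.00304). At the 99th percentile it was +1.91 (SE 0.331, adjusted p = 0.000113). The size exceeded by 1 in 1000 tumours of a mouse was 98990 to 1532120 cells in KT_H11_LSL-Cas9 mice (middle mouse 236061), against 6111 to 14846 cells in KT mice (middle mouse 12125). The groups did not overlap there, and the fold was 22.8 (log2 4.51, SE 0.279, adjusted p = 8.32e-07).

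**Figure D1:**
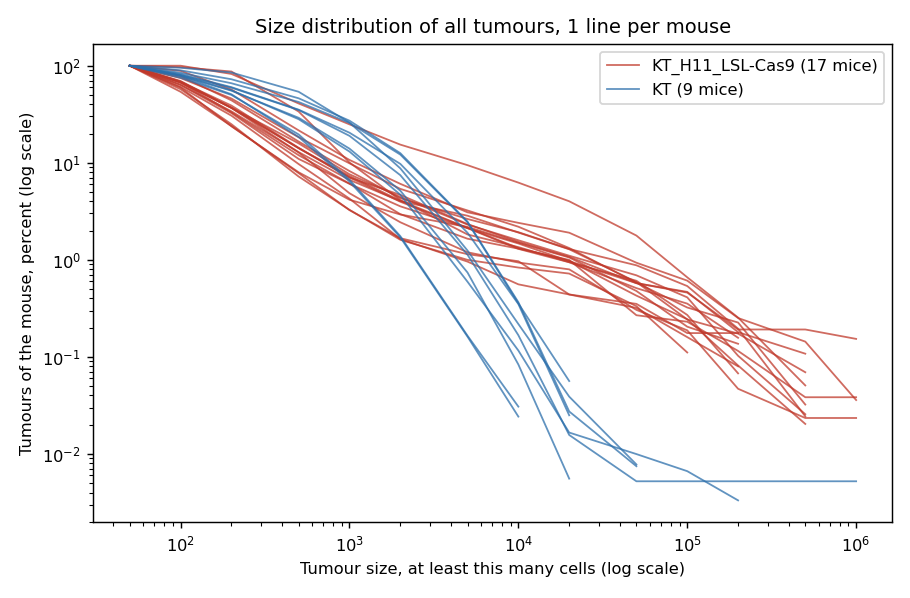
Percent of a mouse's tumours (vertical axis, log scale) that held at least the number of cells on the horizontal axis (log scale), with 1 line for each of 17 KT_H11_LSL-Cas9 mice (red) and 9 KT mice (blue). The red lines lie mostly below the blue ones near 1000 cells and all above them from 10000 to 100000 cells, while at 200000 cells and beyond KT replicate 6 lies above some red lines.

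Most tumour cells of KT_H11_LSL-Cas9 lungs lay in few tumours. Tumours of at least 10000 cells held 61.7 to 93.6% of the tumour cells in KT_H11_LSL-Cas9 mice (mean 77.7 ± 7.62, SD, n = 17) and 0.720 to 10.8% in KT mice (mean 4.64 ± 3.11, SD, n = 9), with no overlap (difference 73.0, exact permutation, adjusted p = 8.32e-07). These tumours were 1.73% of all tumours on average in KT_H11_LSL-Cas9 mice and 0.190% in KT mice. KT_H11_LSL-Cas9 replicate 11 stood apart with 6.24% (next 2.40%), and it is also the mouse with 51.6 cells per read and the highest lower end of listed sizes, 155 cells. Without it the difference was 1.25 in place of 1.54 percentage points, and that in percent of cells 72.9, and both passed. The largest single tumour alone held 6.74 to 42.1% of a KT_H11_LSL-Cas9 mouse's tumour cells (median 13.5%), against 0.133 to 7.71% in KT mice (median 0.300%). The highest KT value came from replicate 6, whose largest tumour carried Lkb1 and Nf1 guides and held 1067450 cells.

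KT_H11_LSL-Cas9 mice had fewer tumours in all, 0.124 times the KT number (log2 difference -3.01, SE 0.215), and 0.313 times the summed cells (log2 difference -1.68, SE 0.331, adjusted p = 3.27e-05). Since the dose is not in the labels, how far dose accounts for these totals was not tested, and gene results below are set against other tumours of the same mouse. Inert/inert tumours, which no guide should alter, were also smaller in KT_H11_LSL-Cas9 mice, 0.627 times the KT size (log2 difference -0.67, SE 0.203, adjusted p = 0.00579). Against the 4 KT mice with spike-ins near 300000 cells alone, the differences at the median (-0.97), at the 90th percentile (-0.82) and in inert/inert size (-0.77) no longer passed (exact permutation, adjusted p = 0.121, 0.152 and 0.139). The difference in the size exceeded by 1 in 1000 tumours was then 4.74 and that in percent of cells in tumours of at least 10000 cells 74.8, and both passed. With tumours under 200 cells left out, the difference at the 90th percentile was +0.05 in place of -1.02.

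By kind of construct, a larger share of the cells lay in tumours with guides to 2 genes in KT_H11_LSL-Cas9 than in KT mice. Tumours with guides to 2 genes held 82.6 ± 6.28% of the cells in KT_H11_LSL-Cas9 mice (SD, n = 17) and 69.2 ± 1.20% in KT mice (SD, n = 9). Tumours with 1 gene and an inert guide held 9.49 ± 2.38% in KT_H11_LSL-Cas9 and 19.8 ± 0.831% in KT mice. Inert/inert tumours held 0.171% in KT_H11_LSL-Cas9 and 0.679% in KT mice, and none of these 3 shares overlapped between the groups. By number the kinds were much closer, at 68.0 and 69.1% for 2 genes and 20.5 and 19.9% for 1 gene and an inert guide, KT_H11_LSL-Cas9 before KT. Inert/inert tumours were 396 of 48337 in KT_H11_LSL-Cas9 and 1466 of 204936 in KT mice, so few tumours of any size were inert/inert in either group. Pooled over mice, inert/inert tumours held 162 cells at the median and 2123 at the 99th percentile in KT_H11_LSL-Cas9 mice, and 275 and 5411 cells in KT mice.

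Tumour number per gene was taken as the gene's tumours beside an inert guide divided by that mouse's inert/inert tumours, on the log2 scale with 0.5 added to each count. Of the 16 genes, 4 were lower in KT_H11_LSL-Cas9 than in KT mice (25% of those tested) and 0 higher (0%) at an adjusted p under 0.05. Pcna gave 0.235 to 1.63 tumours per inert/inert tumour in KT_H11_LSL-Cas9 mice (median 0.917), against 2.64 to 3.15 in KT mice (median 2.90). No KT_H11_LSL-Cas9 mouse reached the KT range, and the number was 0.308 times that of KT (log2 -1.70, SE 0.161, adjusted p = 5.44e-06). In raw counts there were 359 Pcna tumours beside an inert guide among the 48337 tumours of 17 KT_H11_LSL-Cas9 mice. The 9 KT mice had 4256 among 204936. Raw counts of Keap1 (720 and 3800) and Nf1 (1004 and 3152) were also lower, KT_H11_LSL-Cas9 before KT.

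Keap1, the adaptor that marks Nrf2 for degradation, had 1.06 to 3.33 tumours per inert/inert tumour in KT_H11_LSL-Cas9 mice (median 1.86), against 2.38 to 2.79 in KT mice (median 2.59). Its difference was -0.48 (SE 0.102, adjusted p = 0.00332), and 15 of 17 KT_H11_LSL-Cas9 mice lay below the KT median. Lkb1, a kinase that activates AMPK and related kinases, had 1.06 to 2.71 (median 1.57) in KT_H11_LSL-Cas9 and 1.87 to 2.34 (median 2.12) in KT mice, a difference of -0.39 (SE 0.0966, adjusted p = 0.00635). Kmt2b had 0.118 to 0.833 (median 0.273) in KT_H11_LSL-Cas9 and 0.381 to 0.605 (median 0.464) in KT mice, a difference of -0.59 (SE 0.176, adjusted p = 0.0103). For these 3 genes the groups overlapped. Against the 4 KT mice near 300000 spike-in cells the differences of Keap1 (-0.45), Lkb1 (-0.37) and Kmt2b (-0.59) did not pass (exact permutation, adjusted p = 0.0748, 0.102 and 0.114), while that of Pcna (-1.69) did. With only the 12 KT_H11_LSL-Cas9 mice whose names begin with HC, the calls of Lkb1 and Kmt2b were also lost (exact permutation, adjusted p = 0.0945 and 0.108).

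The genes of GTPase-activating proteins, Nf1 and Rasa1, and p53 had the highest values of the common genes, without passing. Nf1 gave 1.59 to 4.78 tumours per inert/inert tumour in KT_H11_LSL-Cas9 mice (median 2.59) and 1.99 to 2.52 in KT mice (median 2.17), a difference of +0.24 (SE 0.0967, adjusted p = 0.0676). Rasa1 differed by +0.17 (adjusted p = 0.172). The transcription factor p53 had 2.00 to 4.92 (median 3.05) in KT_H11_LSL-Cas9 and 2.48 to 2.90 (median 2.67) in KT mice, a difference of +0.20 (SE 0.0895, adjusted p = 0.0893). Rb1, the pocket protein that holds back E2F factors, differed by -0.24 (adjusted p = 0.0818). Of the Wnt pathway, Apc, a scaffold of the complex that degrades beta-catenin, differed by -0.22 (adjusted p = 0.0990), and Rnf43, a ubiquitin ligase that removes Wnt receptors, by -0.17 (adjusted p = 0.0893). With only the 5 KT_H11_LSL-Cas9 mice whose names begin with MT, 6 genes were lower. Apc (-0.48) and Rb1 (-0.28) were then among them (exact permutation, adjusted p = 0.00849 and 0.0495). With only the HC mice Apc had -0.11 and Rb1 -0.22 (exact permutation, adjusted p = 0.564 and 0.252).

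The remaining genes were closer to 0 than their errors would resolve. Setd2 differed by -0.10 (SE 0.102) and Kmt2a by -0.11 (SE 0.173). Kat7 differed by -0.13 (SE 0.204), and Meaf6, a subunit of its complex, by +0.01 (SE 0.214). Ccnl1 differed by -0.20 (SE 0.179) and Ccnl2 by -0.07 (SE 0.181). Their adjusted p lay between 0.405 and 0.957. Kmt2a, Kmt2b, Kat7, Meaf6 and Ccnl1 were rare in the pool, with 85 to 152 tumours each in all KT_H11_LSL-Cas9 mice, so small differences were not detectable for them at this depth.

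**Figure D2:**
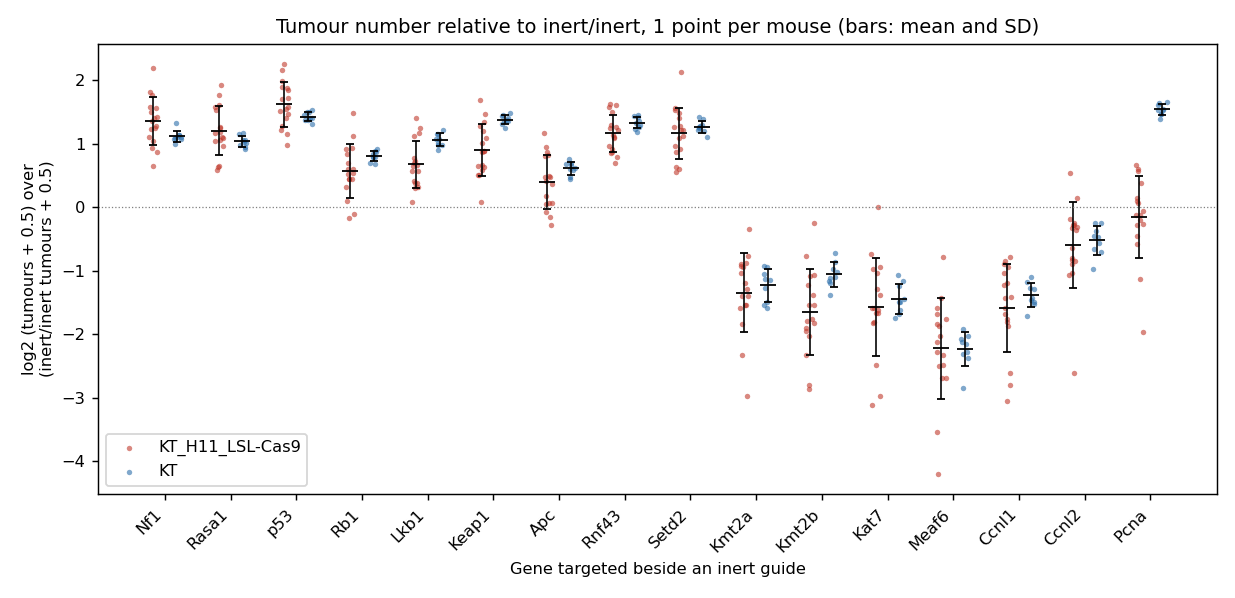
Log2 tumours of each gene beside an inert guide over inert/inert tumours (0.5 added to both counts) in 17 KT_H11_LSL-Cas9 mice (red, left) and 9 KT mice (blue, right), 1 point per mouse, with bars for mean and SD. Pcna is the gene whose red points all lie below its blue points.

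The choice of denominator mattered for the genes above 0. Relative to all tumours of the mouse, 3 of 16 genes were higher in KT_H11_LSL-Cas9 mice (18.8%) and 4 lower (25%). The higher ones were Nf1 (+0.42, SE 0.0455, adjusted p = 1.36e-06), p53 (+0.38, SE 0.0510, adjusted p = 6.53e-06) and Rasa1 (+0.35, SE 0.0495, adjusted p = 1.36e-06). For Nf1 and Rasa1 all 17 KT_H11_LSL-Cas9 mice lay above all 9 KT mice. The lower ones were again Pcna (-1.51), Kmt2b (-0.41), Keap1 (-0.29) and Lkb1 (-0.20). Here the denominator contains the constructs of all genes, the depleted Pcna ones included, which the inert/inert denominator does not. Whether this accounts for the change was not tested.

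Mean tumour size per gene was the mean log2 cells of its tumours beside an inert guide minus that of inert/inert tumours in the same mouse. It differed for 1 gene of 16 tested, which was lower (6.25%), and for 0 higher (0%). Pcna tumours lay between -1.06 and 0.60 in 16 KT_H11_LSL-Cas9 mice (median -0.28) and between -0.05 and 0.32 in KT mice (median 0.10). The difference was -0.42 (SE 0.105, adjusted p = 0.00880), and 15 of 16 KT_H11_LSL-Cas9 mice lay below the KT median. With tumours under 200 cells left out it was -0.11 (adjusted p = 0.732), and with only the 12 mice whose names begin with HC it was -0.47 (adjusted p = 0.0763). Of the others, Kmt2b had +0.32 (SE 0.211, adjusted p = 0.607) and Nf1 +0.14 (SE 0.116, adjusted p = 0.693), and the remaining 13 lay from -0.14 to +0.07.

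**Figure D3:**
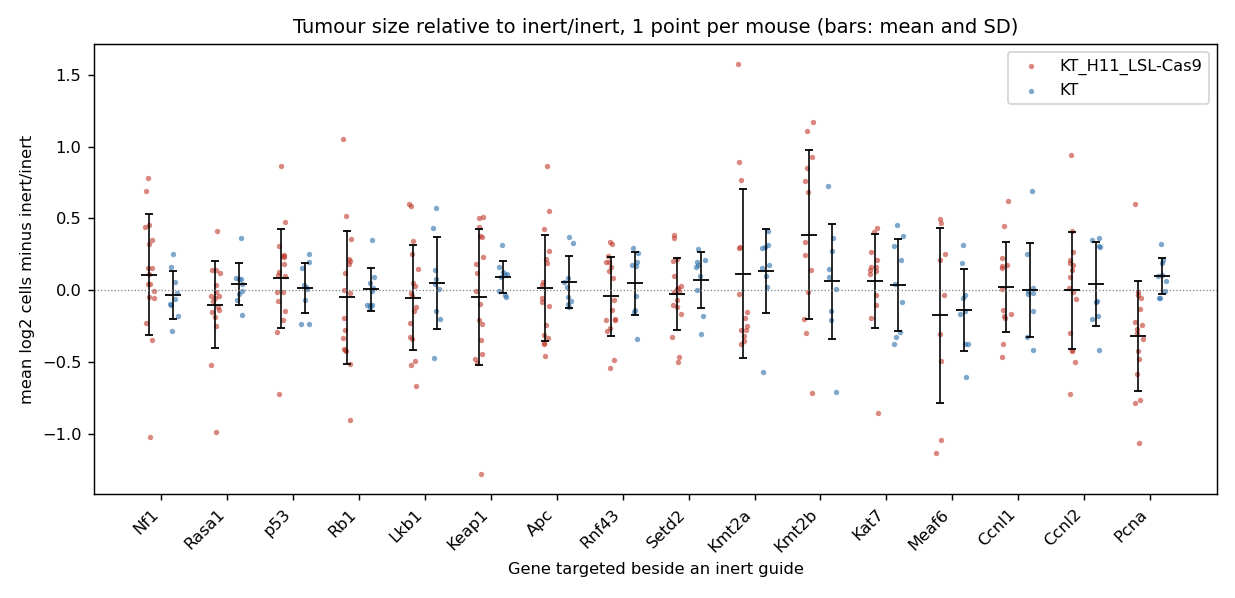
Mean log2 cells of each gene's tumours beside an inert guide minus that of inert/inert tumours, 1 point per mouse with 5 or more tumours of each kind, for KT_H11_LSL-Cas9 (red, left) and KT (blue, right), with bars for mean and SD. The KT_H11_LSL-Cas9 mean of Pcna is -0.32 and its KT mean 0.10, and for the other genes the points of the groups overlap around 0.

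The smallest listed tumour held 50.4 to 155 cells in KT_H11_LSL-Cas9 mice and 50.4 to 56.2 cells in KT mice, so size was also compared among tumours of at least 200 cells, above every mouse's lower end. There 3 of 13 genes with enough tumours were higher (23.1%) and 0 lower (0%). Apc differed by +0.50 (SE 0.152, adjusted p = 0.0190, 12 KT_H11_LSL-Cas9 mice), Nf1 by +0.53 (SE 0.186, adjusted p = 0.0276, 14 mice) and Kmt2a by +0.81 (SE 0.246, adjusted p = 0.0190, 6 mice). The Apc values lay between -0.23 and 1.51 in KT_H11_LSL-Cas9 mice and between -0.13 and 0.20 in KT mice, so the groups overlapped. Leaving out a single mouse at a time, the highest adjusted p was 0.0479 for Apc, 0.0497 for Kmt2a and 0.0502 for Nf1. The values of p53 (+0.29, adjusted p = 0.0724), Rb1 (+0.24, adjusted p = 0.139) and Lkb1 (+0.24, adjusted p = 0.333) did not pass, and 12 of 13 genes were above 0.

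The upper end of single-gene tumours was read at the 90th percentile over that of inert/inert, in mice with 10 or more tumours of each. No gene of 14 passed in either direction (0% higher, 0% lower), and at an unadjusted p under 0.05 only Pcna did, with -0.73 (SE 0.256, adjusted p = 0.163). Nf1 had +0.50 (SE 0.236, adjusted p = 0.261), and at the 95th percentile +1.26 (adjusted p = 0.0389). Kmt2b and Meaf6 had too few tumours. Pooled over mice, the 99th percentile of Apc tumours held 33049 cells in KT_H11_LSL-Cas9 mice and 5471 in KT mice. For Nf1 it held 19894 and 4707 cells, for Lkb1 13198 and 5272 cells, and for Pcna 2752 and 5585 cells, KT_H11_LSL-Cas9 before KT. Thus at this percentile Apc, Nf1 and Lkb1 tumours were larger in KT_H11_LSL-Cas9 mice and Pcna tumours smaller, as a description of pooled tumours with no test.

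The share of lung burden is a genotype's cells over the cells of all tumours in the mouse, compared on the log2 scale with 50 cells added to both. All 16 genes beside an inert guide had a lower share in KT_H11_LSL-Cas9 mice (100%), and 0 a higher one (0%). Inert/inert tumours also held a lower share, as given above, so a lower share was not particular to the genes. The median difference of the 16 genes was -2.19, and it was +0.05 when their cells were set against inert/inert cells. Pcna held 0.0398 to 0.249% of a KT_H11_LSL-Cas9 mouse's tumour cells (median 0.104%) and 2.01 to 2.85% of a KT mouse's (median 2.07%), a difference of -4.40 (SE 0.169, adjusted p = 1.09e-06). Nf1 held 0.281 to 4.29% (median 0.744%) in KT_H11_LSL-Cas9 and 1.32 to 1.74% (median 1.41%) in KT mice, the smallest difference at -0.61 (SE 0.275, adjusted p = 0.0426). That call was lost in 14 of the 26 fits that left out a single mouse. The denominator of this share contains the tumours of every construct in the pool, the few very large ones included.

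Set against inert/inert cells instead, 3 of 16 genes held more in KT_H11_LSL-Cas9 mice (18.8%) and 1 less (6.25%). Nf1 differed by +1.64 (SE 0.427, adjusted p = 0.00200), Apc by +1.02 (SE 0.325, adjusted p = 0.0229) and p53 by +0.86 (SE 0.259, adjusted p = 0.0109). Pcna differed by -2.15 (SE 0.242, adjusted p = 2.72e-05). On this scale 13, 12 and 14 of 17 KT_H11_LSL-Cas9 mice lay above the KT median for Nf1, Apc and p53. Lkb1 (+0.26, adjusted p = 0.893) and Setd2 (+0.42, adjusted p = 0.548) did not pass.

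Large tumours, of at least 10000 cells, were then counted by the genes they carried, a tumour with guides to 2 genes counting for both. Among constructs of the 16 genes and the inert guides there were 488 large tumours of 34358 in KT_H11_LSL-Cas9 and 280 of 157556 in KT mice. Of inert/inert tumours 0 of 396 were large in KT_H11_LSL-Cas9 mice, which allows a share of up to 0.758%, and 1 of 1466 in KT mice. Single-gene tumours gave 79 of 8537 (0.925%) in KT_H11_LSL-Cas9 and 77 of 36929 (0.209%) in KT mice. Tumours with a gene pair gave 404 of 24265 (1.66%) in KT_H11_LSL-Cas9 and 192 of 114454 (0.168%) in KT mice. In 11 of 16 genes (68.8%) the large share was higher in KT_H11_LSL-Cas9 mice, and in 0 (0%) lower. Most large tumours carried a gene pair, so a gene's share includes tumours of its partners, and their parts were not separated.

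Within KT_H11_LSL-Cas9 mice, each gene's large share was set against the rest of the same mouse's tumours by exact sign flips over 17 mice, with adjustment over all genes and inert/inert. It was above the rest for 4 genes (25%) and below it for 5 (31.2%). Lkb1 tumours were large in 0.870 to 11.3% of cases (median 2.29%), above the rest in 16 of 17 mice, with a mean excess of 1.95 percentage points (SE 0.487, adjusted p = 0.000713). In KT mice the Lkb1 share was 0 to 0.422%. Apc exceeded the rest in 16 mice (mean 1.08 points, adjusted p = 0.00137), Nf1 in 15 mice (0.871 points, adjusted p = 0.000713) and Setd2 in 11 mice (0.862 points, adjusted p = 0.00631). Beside an inert guide Lkb1 had fewer tumours than in KT mice. That call was lost against the 4 KT mice near 300000 spike-in cells and with HC mice only. Over all Lkb1 constructs, gene pairs included, a larger share of the tumours was large.

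Below the rest were Pcna, Ccnl1, Rasa1, Ccnl2 and p53. Pcna had 2 large tumours of 2016 in KT_H11_LSL-Cas9 mice and 51 of 25085 in KT mice, and was below the rest in 17 of 17 KT_H11_LSL-Cas9 mice (mean -1.43 points, adjusted p = 0.000130). Rasa1 was large in 0.881% on average (-0.677 points, adjusted p = 0.00137) and p53 in 1.08% (-0.460 points, adjusted p = 0.00227). Both shares were nevertheless above those of KT mice, 0.153% for Rasa1 and 0.187% for p53 (exact permutation, adjusted p = 0.00477 and 3.72e-05). Ccnl1 had 4 large tumours of 935, and Ccnl2 15 of 1725, whose call was lost in 4 fits that left out a single mouse. The 2 GTPase-activating proteins thus split, with Nf1 above the rest of its mouse and Rasa1 below it.

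**Figure D4:**
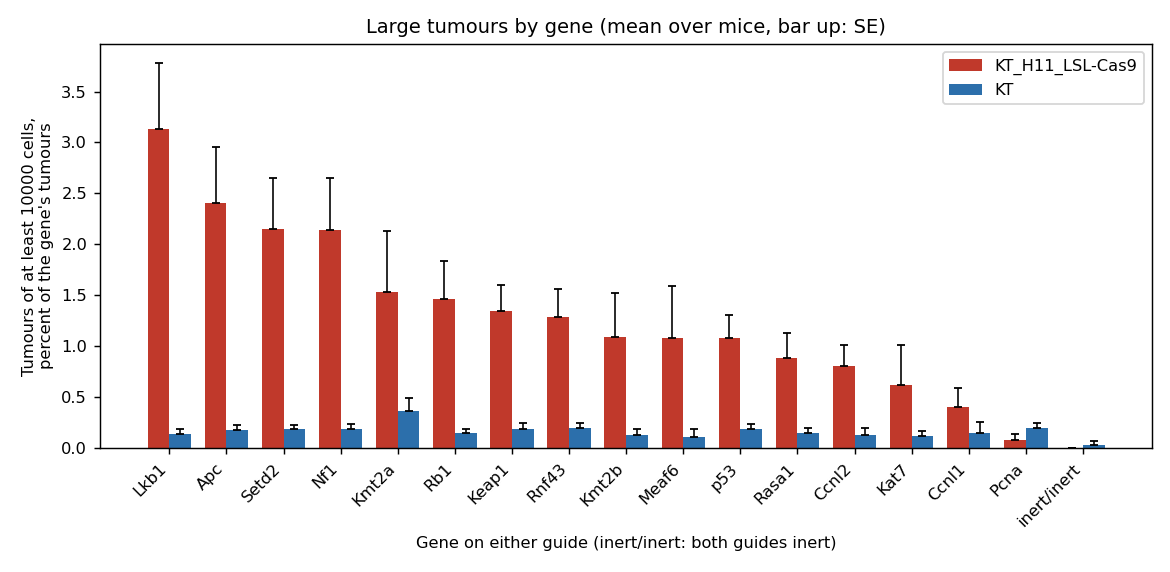
Mean percent of tumours of at least 10000 cells among tumours with a guide to each gene in either place, in KT_H11_LSL-Cas9 (red, left) and KT mice (blue, right), with bars up for the SE over 17 and 9 mice. Lkb1 (3.14%), Apc (2.41%), Setd2 (2.15%) and Nf1 (2.14%) are highest in KT_H11_LSL-Cas9 mice, and inert/inert is at 0.

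Tumours of at least 100000 cells numbered 55 in KT_H11_LSL-Cas9 and 3 in KT mice among the same constructs, and 50 of the 55 carried guides to a gene pair. Of the 55, 25 had an Lkb1 guide, 20 an Apc guide, and 41 at least 1 of these. Among all 34358 tumours of these constructs in KT_H11_LSL-Cas9 mice, 24265 carried a gene pair, 4350 an Lkb1 guide and 3585 an Apc guide. Only Lkb1 and Apc stood above the rest of the mouse at 100000 cells or more (exact sign flips, adjusted p = 0.00242 and 0.00415). Among these constructs, the 4 KT_H11_LSL-Cas9 tumours above 1000000 cells were an Apc/Nf1 tumour of 3938720 cells and 3 Apc/Lkb1 tumours. The 3 largest of the 4 came from KT_H11_LSL-Cas9 replicate 10 and shared the Apc_V2 guide. Constructs left out here also held tumours above 1000000 cells. Among pairs with many tumours, 13 of 249 Apc/Lkb1 (5.22%), 17 of 327 Lkb1/Rb1 (5.20%), 19 of 395 Lkb1/Setd2 (4.81%) and 13 of 356 Apc/Nf1 tumours (3.65%) were large in KT_H11_LSL-Cas9 mice. Apc/Lkb1 tumours held up to 42.7% of a KT_H11_LSL-Cas9 mouse's cells (median 0.177%) and 0.618 to 0.813% of a KT mouse's (median 0.722%).

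Tumour number was tested for all 120 pairs in the same way. In KT_H11_LSL-Cas9 mice 37 pairs were lower (30.8%) and 7 higher (5.83%). Of the lower pairs, Pcna was in 14, Lkb1 in 10 and Keap1 in 9, each gene being in 15 of the 120 pairs tested. In all, 30 of the 37 contained 1 or more of these genes. They were picked from the 4 genes that were lower on their own in these data, as those with the most tumours, with Kmt2b left aside. The 30 were not set against the share of such pairs among the 120. All 9 pairs without overlap between the groups contained Pcna. The 7 lower pairs without these genes were Apc/Kat7, Apc/Rnf43, Apc/Setd2, Ccnl1/Rb1, Kat7/Rnf43, Kmt2b/Rasa1 and Kmt2b/Rb1.

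With 0.5 added to each count Lkb1/Pcna was lowest, with 0 to 0.750 tumours per inert/inert tumour in KT_H11_LSL-Cas9 mice (median 0.368) and 1.31 to 1.54 in KT mice (median 1.47). Its difference was -2.17 (SE 0.241, adjusted p = 4.35e-06). It was followed by Kmt2a/Pcna (-1.94), Nf1/Pcna (-1.93), Apc/Pcna (-1.85), Kat7/Pcna (-1.81), Pcna/Setd2 (-1.78), Pcna/Rnf43 (-1.74) and Pcna/Rb1 (-1.69). Nf1/Pcna gave 0.235 to 0.824 tumours per inert/inert tumour in KT_H11_LSL-Cas9 mice and 1.31 to 1.62 in KT mice, without overlap. Among lower pairs without Pcna, Kmt2b/Lkb1 had -1.01 (SE 0.296, adjusted p = 0.00688). The order of rare pairs depended on the count added to each. With that count scaled to each mouse's tumour number, Kat7/Pcna (-2.84) and Kmt2a/Pcna (-2.68) lay below Lkb1/Pcna (-2.37), and Meaf6/Pcna had -2.07 in place of -0.83. Of the pairs without Pcna that passed, Ccnl1/Rb1 (-1.62), Meaf6/Rnf43 (-1.59), Lkb1/Meaf6 (-1.57), Ccnl1/Kmt2b (-1.57) and Kmt2a/Meaf6 (-1.55) then lay below Kmt2b/Lkb1 (-1.39).

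Nf1 was in 5 of the 7 higher pairs and in 15 of the 120 tested. Nf1/p53 had 1.18 to 3.12 tumours per inert/inert tumour in KT_H11_LSL-Cas9 mice (median 2.05) and 1.40 to 1.86 in KT mice (median 1.66), a difference of +0.33 (SE 0.105, adjusted p = 0.0195). Nf1/Rasa1, whose genes both encode GTPase-activating proteins, had 1.07 to 3.08 (median 1.71) in KT_H11_LSL-Cas9 and 1.23 to 1.49 (median 1.39) in KT mice, a difference of +0.31 (SE 0.102, adjusted p = 0.0196). The other 5 were rarer: Ccnl1/Meaf6 (+1.57), Kat7/p53 (+0.60), Meaf6/Nf1 (+0.52), Ccnl1/Nf1 (+0.47) and Ccnl2/Nf1 (+0.42). Adding 0.5 lifts rare pairs more in mice with few tumours, and Ccnl1/Meaf6 rested on 5 tumours in KT_H11_LSL-Cas9 and 14 in KT mice. With the scaled count 51 pairs were lower, including all 37, and 2 higher, Nf1/p53 and Nf1/Rasa1, while Ccnl1/Meaf6 had -0.43.

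**Figure D5:**
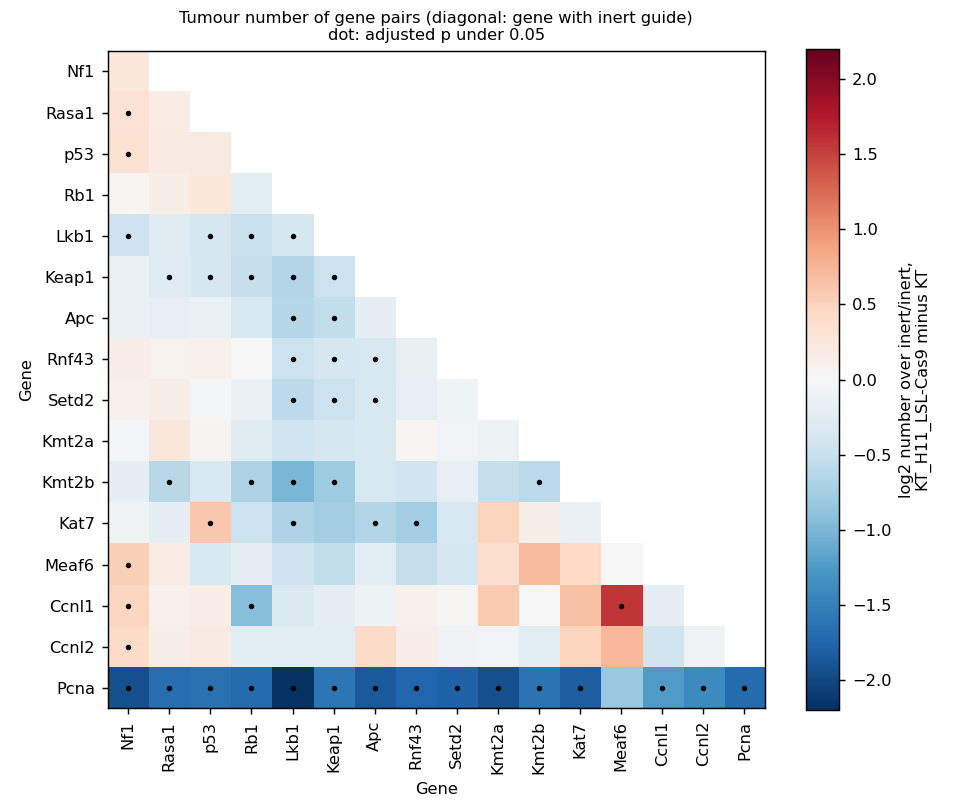
Difference in log2 tumour number over inert/inert, KT_H11_LSL-Cas9 minus KT (colour, red higher and blue lower in KT_H11_LSL-Cas9), for each gene pair and, on the diagonal, each gene beside an inert guide, with dots where the adjusted p was under 0.05. With 0.5 added to each count, the Pcna row is blue throughout, from -2.17 to -0.83 in pairs.

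Whether a pair's number departed from what its single genes gave was tested on log2 number of the pair minus both single genes plus inert/inert. By the permutation test 0 of 120 pairs passed in either direction (0%), with 12 higher and 1 lower at an unadjusted p under 0.05. The highest were Ccnl1/Meaf6 (+1.76, adjusted p = 0.0672), Kmt2b/Meaf6 (+1.28, adjusted p = 0.306) and Ccnl1/Kat7 (+0.98, adjusted p = 0.482). These are rare pairs, which the added 0.5 lifts more in mice with few tumours. With the scaled count the number differences of Ccnl1/Meaf6 and Ccnl1/Kat7 themselves were -0.43 and -0.88. The lowest were Meaf6/p53 (-0.54, adjusted p = 0.733), Ccnl1/Rb1 (-0.49, adjusted p = 0.739) and Nf1/Pcna (-0.47, SE 0.234, adjusted p = 0.480).

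Mean size could be tested for 81 pairs with enough tumours, of which 1 was lower in KT_H11_LSL-Cas9 mice (1.23%) and 0 higher (0%). Apc/Pcna lay between -1.45 and -0.11 in 13 KT_H11_LSL-Cas9 mice (median -0.64) and between -0.41 and 0.38 in KT mice (median 0.06). Its difference was -0.62 (SE 0.155, adjusted p = 0.0337), a call that most other settings did not keep. The highest were Kmt2b/Lkb1 (+0.61, adjusted p = 0.629), Ccnl2/Nf1 (+0.27, adjusted p = 0.495) and Nf1/Rasa1 (+0.22, adjusted p = 0.451), none of which passed.

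Among tumours of at least 200 cells 19 of 46 pairs were larger in KT_H11_LSL-Cas9 mice (41.3%) and 0 smaller (0%). The largest difference was that of Apc/Lkb1 at +1.54 (SE 0.617, adjusted p = 0.0254, 9 KT_H11_LSL-Cas9 mice). The 9 mice lay between -0.15 and 4.83 (median 0.60), against -0.19 to 0.17 in KT mice, and without KT_H11_LSL-Cas9 replicate 10 the difference was +1.13 (adjusted p = 0.0569). Lkb1/Setd2 had +1.09 (SE 0.340, adjusted p = 0.0104), Lkb1/Rb1 +0.95 (SE 0.263, adjusted p = 0.00896) and Lkb1/Nf1 +0.89 (SE 0.243, adjusted p = 0.00670). Apc/Nf1 had +0.79 (SE 0.268, adjusted p = 0.00936), with all 10 KT_H11_LSL-Cas9 mice above the KT median. By gene, 6 of 9 tested pairs with Nf1 and 6 of 9 with Setd2 passed, as did 5 of 8 each with Apc, Lkb1 and Rb1 and 5 of 10 with Rnf43. Leaving out a single mouse at a time gave 13 to 27 such pairs.

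The share of lung burden was lower for 107 of 120 pairs (89.2%) and higher for 0 (0%). The inert/inert share was lower too. The median difference of the pairs was -2.42, and it was -0.18 over inert/inert cells. The largest falls were those of Kat7/Pcna (-5.63), Lkb1/Pcna (-5.07), Kmt2a/Pcna (-5.04), Apc/Pcna (-4.76) and Kmt2b/Pcna (-4.67). Lkb1/Pcna held 0 to 0.109% of the cells in KT_H11_LSL-Cas9 and 0.819 to 1.30% in KT mice. The only pair above 0 was Apc/Nf1 (+0.04, SE 0.663, adjusted p = 0.953), with 0.0309 to 27.6% of the cells in KT_H11_LSL-Cas9 mice (median 0.505%) and 0.435 to 0.779% in KT mice (median 0.662%).

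Over inert/inert cells 15 pairs were higher (12.5%) and 24 lower (20%) in KT_H11_LSL-Cas9 mice. All 15 Pcna pairs were lower, from -3.38 for Kat7/Pcna to -1.66 for Pcna/Rb1. The highest were Apc/Nf1 (+2.28, SE 0.763, adjusted p = 0.0276), Nf1/Setd2 (+1.89, SE 0.394, adjusted p = 0.00238), Lkb1/Setd2 (+1.78, SE 0.615, adjusted p = 0.0303) and Rb1/p53 (+1.58, SE 0.386, adjusted p = 0.00322). By gene, 6 of 15 pairs with Nf1, 5 of 15 with Setd2 and 4 of 15 each with Rasa1, Rnf43 and p53 were higher.

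Of the reported genes, 9 had 2 guides (V1 and V2) and 7 had 1, which gave 25 guides. In number 7 guides were lower in KT_H11_LSL-Cas9 mice (28%) and 1 higher (4%). Keap1_V2 differed by -0.93 (SE 0.139, adjusted p = 0.000216) and Keap1_V1 by -0.13 (SE 0.114, adjusted p = 0.462). Lkb1_V1 differed by -0.48 (adjusted p = 0.000393) and Lkb1_V2 by -0.27 (adjusted p = 0.132). Apc_V2 differed by -0.39 (adjusted p = 0.00934) and Apc_V1 by +0.04 (adjusted p = 0.860). The higher guide was Nf1_V1 (+0.30, adjusted p = 0.0477), beside Nf1_V2 at +0.18 (adjusted p = 0.263), and its call was lost in 18 of the 26 fits that left out a single mouse. The values of the 2 Keap1 guides and the 2 Apc guides were thus far apart, but the difference between guides of a gene was not tested. In mean size 1 guide was lower (4%), the only Pcna guide, and 0 were higher (0%).

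The place of the gene's guide was compared as log2 number in place 1 minus place 2, for 15 genes found in both. It differed for Pcna alone (1 lower, 6.67%, and 0 higher, 0%). Pcna lay between -1.22 and 0.63 in KT_H11_LSL-Cas9 mice (median -0.08) and between 0.35 and 0.73 in KT mice (median 0.65). The difference was -0.72 (SE 0.139, adjusted p = 0.000574), and 17 of 17 KT_H11_LSL-Cas9 mice lay below the KT median, so that the deficit of Pcna tumours was greater with the guide in place 1.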

How the data were processed

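The deposited table lists each tumour of each mouse with its 2 guides, its read count and its size in cells. Per the file header, the read counts are counts per barcode and guide pair, made by the authors from lung DNA (32 µg per amplified sample, per the labels' protocols); the header and protocols do not describe the steps between reads and table. The cell numbers are a signal that the authors deposited: within a mouse they equal the reads times 1 factor, set by the spike-in entries.

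Mice were grouped by the labels' genotype. For each mouse and guide combination, tumour number, mean log2 cells, 90th percentile and share of cells were computed, both orders of the guides together, with Python 3.11.15, numpy 2.4.6, pandas 2.3.3, numba 0.67.0 and matplotlib 3.10.9. Groups were compared by exact two-sided permutation of mouse labels on the difference over its standard error (17 against 9 mice, smallest p 3.2e-07). Benjamini-Hochberg adjustment ran over all genes, pairs or guides tested, with a threshold of 0.05. The adjustment, the whole-lung measures and the totals of all tumours and cells include 1 gene that is not reported here. Size needed 5 tumours per mouse and kind and 5 mice per group. The permutation test was tested on simulated data for number and size of genes and pairs. The sign-flip test and the other measures were not. Precision was limited by the 8 to 47 inert/inert tumours of a KT_H11_LSL-Cas9 mouse. Intervals and limits from counts of 0 cover counting error only.

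All genes beside an inert guide were named. Of pairs past the threshold, the 8 largest falls and 8 largest rises in number and the 5 and 5 in the other measures were named, and where none passed, the 3 most extreme. Members, gene groups and tests were chosen with earlier results of these data known, and the counts of large tumours, the scaled added count and the alternative of 200 cells relative to all tumours were added after the data were seen. Alternatives changed the minimum size, the statistic, the KT mice, the KT_H11_LSL-Cas9 mice, the inert guides, same-guide constructs, the added count, the denominator and the mice. The guide named NE, whose meaning the labels do not give, counted as neither gene nor inert. Guide sequences were not used here.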

Additional observations from a re-analysis of the deposited data

Results flagged for a closer look

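In KT mice 15 of 90 tested sets of 9 values had a mouse whose gap to its nearest neighbour was large for the range of the set; chance gives about 1 in 20. The 17 KT_H11_LSL-Cas9 mice are too many for that rule. Replicate 6 stood apart in the percent of cells in its largest tumour (7.71, next 1.32), in its largest 1% of tumours (18.6, next 14.4) and in tumours of at least 100000 cells (7.71, next 2.07), all through the Lkb1/Nf1 tumour. In the same mouse Meaf6 was low in log2 number (-2.85, next -2.38) and log2 burden share (-10.94, next -9.80), and Rb1 high in log2 size (0.35, next 0.09). Replicate 7 was low for Kmt2a in log2 size (-0.56, next 0.03) and log2 burden share (-9.05, next -8.37), and high in log2 burden share for Nf1 (-5.85, next -6.09) and Pcna (-5.13, next -5.41).

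Replicate 5 was high for Rasa1 in log2 size (0.37, next 0.09) and for Ccnl1 in the log2 90th percentile (0.53, next -0.01). Replicate 9 was low for Ccnl2 in log2 burden share (-8.57, next -7.90). Replicate 1 was high for Nf1 in log2 number (1.33, next 1.14), and replicate 2 in log2 summed cells (25.19, next 23.95).

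Constructs outside the comparisons also held large tumours in KT_H11_LSL-Cas9 mice. With the NE guide beside a gene or inert guide, 29 of 3211 tumours (0.903%) held at least 10000 cells, against at most 0.489% in a KT mouse. With the same guide of a reported gene in both places, 5 of 302 tumours (1.66%) did, against at most 0.459% in a KT mouse.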

How the results depend on the processing

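No paired analysis was possible because replicate numbers here are accession order and pair no mice. The whole-lung results at the upper end kept their direction and call in every alternative run, as did the lower number and burden share of Pcna tumours. Counts below are of features past the threshold, and the cause of each change was not tested. With at least 200 cells, higher counts were 11 for pairs against single genes, 0 for guide number, 3 for gene size, 19 for pair size and 4 for guide size, lower counts of gene, pair and guide size were 0, and reversed values were Apc size 0.50, Kmt2a and Kmt2a_V1 size 0.81, Rb1_V2 size 0.38 and the 90th percentile 0.0510. With at least 500 cells, 2 genes, 12 pairs and 2 guides were lower in number, 24 pairs and 0 guides higher, 11 pairs higher against single genes, 0 genes differed by place, 6 whole-lung measures were lower and the 90th percentile difference was 1.92. At 200 cells relative to all tumours, 3 genes and 30 pairs were higher; relative to all tumours at any size, 3 genes, 26 pairs and 6 guides were higher and 4 guides lower.

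With the plain difference of means, number gave 1 pair and 0 guides higher and 3 guides lower, and 0 genes, pairs and guides were lower in size. Against KT mice near 300000 cells, number gave 1 gene, 21 pairs and 3 guides lower and 1 pair and 0 guides higher, 0 pairs and guides were lower in size, and 6 whole-lung measures were lower. With HC names only, number gave 2 genes lower, 4 pairs higher and 2 pairs higher against single genes, and 0 genes and pairs were lower in size; with MT names only, 0 pairs were higher, 3 higher and 1 lower against single genes, and 0 lower in size. With same-guide constructs kept, number gave 3 genes, 11 pairs and 4 guides higher and 4 guides lower, and 2 pairs were lower in size. With NE as inert, number gave 3 genes, 18 pairs and 5 guides higher and 4 guides lower, and 1 pair was larger. An added count of 1 gave 19 pairs higher and 7 against single genes; a scaled one gave 1 gene and 2 pairs higher and Ccnl1/Meaf6 at -0.43. With median size or at least 10 tumours 0 pairs were lower in size, and by sign flips against 0, 0 guides. The 80th percentile gave 1 gene lower and the 95th 1 higher. At 100000 cells 3 genes had more large tumours than KT and 2 than the rest of the mouse.

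Relative to inert/inert cells, burden gave 3 genes and 15 pairs higher and 1 gene and 24 pairs lower, with Apc at 1.02, Ccnl2 0.0304, Kmt2a 0.0466, Lkb1 0.26, Meaf6 0.0526, Nf1 1.64, Rasa1 0.17, Rb1 0.16, Rnf43 0.0270, Setd2 0.42 and p53 0.86. Leaving out a single mouse gave in number 4 to 7 genes lower (7 without KT_H11_LSL-Cas9 replicate 1) and 0 to 2 higher, 33 to 42 pairs lower and 4 to 9 higher (4 without KT_H11_LSL-Cas9 replicate 11), 5 to 7 guides lower and 0 to 2 higher. It gave 0 to 3 pairs higher against single genes (some without KT replicate 5 or KT_H11_LSL-Cas9 replicates 1 and 4), 0 to 2 pairs lower in size, 0 to 1 genes lower at the 90th percentile (1 without KT_H11_LSL-Cas9 replicate 10), and 0 to 1 genes with fewer large tumours than KT (1 without KT_H11_LSL-Cas9 replicate 2).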

Other observations

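Inert/inert tumours with 2 safe guides, relative to those with another inert guide, had a mean log2 ratio of 0.61 in KT_H11_LSL-Cas9 and 0.47 in KT mice (difference 0.14, SE 0.173, exact permutation, p = 0.439). Tumours with 2 different guides to the same gene were 3.09% of tumours in KT_H11_LSL-Cas9 mice and 2.66% in KT mice (exact permutation, adjusted p = 0.000187), and 2.28 and 2.58% of cells, KT_H11_LSL-Cas9 before KT. Among tumours with 2 guides to the same reported gene, 5 of 1160 in KT_H11_LSL-Cas9 and 10 of 4707 in KT mice held at least 10000 cells.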
